A study of Mus musculus with 24 samples.

Results

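The cytosolic ribosomal protein genes encode the protein components of the ribosome that translates messenger RNA in the cytoplasm. They were taken here as the array's gene names that begin with Rpl or Rps followed by a number, together with Rpsa, Rplp0, Rplp1 and Rplp2, without names that end in a pseudogene mark and without the S6 kinases. The rule found 84 names with 182 probes and 767 spots per array. Each name was represented by its brightest probe, and 80 of the 84 were kept because its Cy5 signal reached the scanner's well-above-background call on 6 or more of the 12 arrays of a diet, out of 18649 gene names tested in all. All 80 passed with 12 of 12 arrays in both diets. They comprised 33 small subunit genes (1 of them, Rps4l, listed by RefSeq as a transcribed pseudogene), 44 large subunit genes and the 3 genes of the P stalk. The testis- and muscle-type paralogues Rpl10l, Rpl39l and Rpl3l were not kept, and neither was Rpl37, whose only probe was well above background on 2 GLU and 5 GLU+GAL arrays.

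Liver RNA came from 24 C57BL/6JRcc mice labelled female, an inbred strain of ordinary laboratory mice with no transgene. From 3 to 6 weeks of age they ate a semi-synthetic diet that gave 32% of its energy as monosaccharide, 32% as starch, 20% as protein and 16% as fat. In the GLU group (12 mice) the monosaccharide was glucose, and in the GLU+GAL group (12 mice) it was glucose and galactose in equal amounts. Livers were taken in a food-deprived state during the light phase, and the right lobe was used. Each mouse had its own array, with its RNA in the Cy5 channel and an equimolar pool of all mice in the Cy3 channel, so each value below is a log2 ratio of mouse over pool after background correction and loess normalisation. On each array 46.6% to 51.3% of spots were well above background in Cy5. Array GLU+GAL 4 stood apart, with an SD of its log ratios of 0.498 where the next widest, GLU 1, had 0.309. Array GLU+GAL 12 carried Y-linked signal against its label, and Xist was well above background on 23 arrays but not on that one. All 8 hepatocyte markers examined were above background.

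A ribosome holds one copy of nearly every ribosomal protein, so cells make these proteins in matched amounts. Much of this matching is done at translation: their messenger RNAs usually begin with a pyrimidine tract at the cap, the TOP motif, through which mTORC1 and the repressor Larp1 set how well they are translated according to nutrients. In liver, feeding and fasting act strongly on this step, which arrays of total RNA do not measure. Beside their place in the ribosome, some members have other known roles, such as Rpsa, also known as the laminin receptor, and Rpl5 and Rpl11, which bind Mdm2 when ribosome assembly is disturbed.

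The results on single genes turned on Rpsa, Rps9 and Rps2, and the letters that measured them were the following 60-base probes, shown because each reading is a hybridisation to this stretch. Coordinates are those of the array files, in the mouse build mm9. The Rpsa probe lay at chr9:120040269-120040849, an interval longer than the probe itself, the Rps9 probe at chr7:3658287-3658346, the brighter Rps2 probe at chr17:24857583-24857642 and the second Rps2 probe at chr17:42864841-42864900, away from the first on the same chromosome, so that by its coordinate the second need not report the Rps2 gene itself.
Rpsa: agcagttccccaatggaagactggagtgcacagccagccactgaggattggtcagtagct
Rps9: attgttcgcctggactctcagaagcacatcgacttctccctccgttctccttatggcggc
Rps2: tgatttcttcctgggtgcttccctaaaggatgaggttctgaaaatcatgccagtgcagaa
Rps2 second probe: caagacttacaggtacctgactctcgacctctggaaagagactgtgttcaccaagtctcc
Ribosomal protein genes have many processed copies elsewhere in the genome. For Rps27 and Rps29 the chosen probe's coordinate was on another chromosome (9 and 2) than the gene (3 and 12), and a probe cannot tell a gene from a copy with the same letters.

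The TOP motif was looked for in RefSeq promoter windows (GRCm38.p6), which 59 of the 80 genes had by symbol. The windows run from 250 bases before to 50 bases after an annotated start, and 9 genes had several, giving 70 windows. A TOP-like tract was taken as at least 5 pyrimidines in a row on the gene's strand, starting with C no more than 5 bases from the annotated start. It stood in 31 of the 70 windows (44.3%), belonging to 29 genes, and in 18.3% of all 32851 promoter windows. The windows below run from 25 bases before the start to the first 15 transcribed bases, with the tract in capitals, for named genes of both kinds.
Rps6 (chr4:86857353-86857392, minus strand): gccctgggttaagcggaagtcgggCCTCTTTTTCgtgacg
Rps9 (chr7:3704016-3704055, plus strand): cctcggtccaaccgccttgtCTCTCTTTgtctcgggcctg
Rps2 (chr17:24720038-24720077, plus strand): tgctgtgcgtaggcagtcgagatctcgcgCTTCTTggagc
Rps15a (chr7:118116133-118116172, minus strand): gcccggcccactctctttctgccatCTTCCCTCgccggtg
Rpl22l1 (chr3:28805483-28805522, plus strand): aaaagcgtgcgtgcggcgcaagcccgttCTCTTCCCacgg
Rpl7a (chr2:26910782-26910821, plus strand): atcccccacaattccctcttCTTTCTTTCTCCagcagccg
Rpsa (chr9:120127741-120127780, plus strand): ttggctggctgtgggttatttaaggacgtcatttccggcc
In the Rpsa window no such tract was found at the annotated start. The tract stood both in genes that went with the other ribosomal protein genes from mouse to mouse (Rps15a, Rpl22l1) and in genes whose chosen probe went against them (Rps6, Rps2, Rpl7a). The second Rpl7a probe went with the others (r = 0.551). No tract was found for Rps13, Rpl27 and Rps19, whose chosen probes went with the others, nor for Rpl24, whose chosen probe went against them. Of the other motifs searched, on both strands, the ETS-type CCGGAA was in 48.6% of the 70 windows and 14.9% of all windows, and GGGCGG, the GC box, in 61.4% and 35.7%. Over the windows of protein-coding genes alone the shares were 18.6% for the tract, 18.7% for CCGGAA and 46.2% for GGGCGG. AAGATGGCG, the YY1-type motif, was in 8.57% and 1.40%, CACGTG, the E-box of the Myc family, in 11.4% and 7.15%, the NRF1-type palindrome in 2.86% and 0.971%, and TATAAA in 7 of the 70 windows and 13.6% of all. Over protein-coding windows these 4 stood in 1.83%, 7.84%, 1.33% and 12.6%. Among the members the counts were low: AAGATGGCG stood in 6 windows of 4 genes, CACGTG in 8 windows of 6 genes and the NRF1-type palindrome in 2 windows of 2 genes. A match only says that the letters were there.

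The comparison of diets asked whether galactose in place of part of the glucose changed these messages in the liver. No member passed limma's Benjamini-Hochberg adjusted threshold of 0.05, and neither did any of the 18649 features (0%), the lowest adjusted p being 0.523. At an unadjusted p under 0.05 there were 2 members, Rpsa with a higher and Rps9 with a lower mean in GLU+GAL, where 4.31% of all features were past that level, 1.65% higher and 2.66% lower. Of the 80, 38 had a higher mean in GLU+GAL and 42 a lower one, against 50.8% higher over all features. The median difference was -0.0025 on the log2 scale, and that of all features 0.0013. Within slides 1, 2 and 3, the batches of the study, 40, 52 and 15 of the 80 had a higher mean in GLU+GAL, against 48.2%, 45.3% and 57.8% of all features, so the direction was not shared by the slides. The differences were small: 78 of 80 members differed by less than 0.1 in either direction, as did 82.7% of all features. The direction of the group as a whole depended on normalisation. With median centring in place of loess 77 of 80 had a higher mean in GLU+GAL (median 0.062), with Agilent's processed signals 71 (median 0.046) and 78 had one (median 0.081) in the authors' deposited table, while the median of all features was -0.0026, 0.041 and 0.013.

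**Figure D1:**
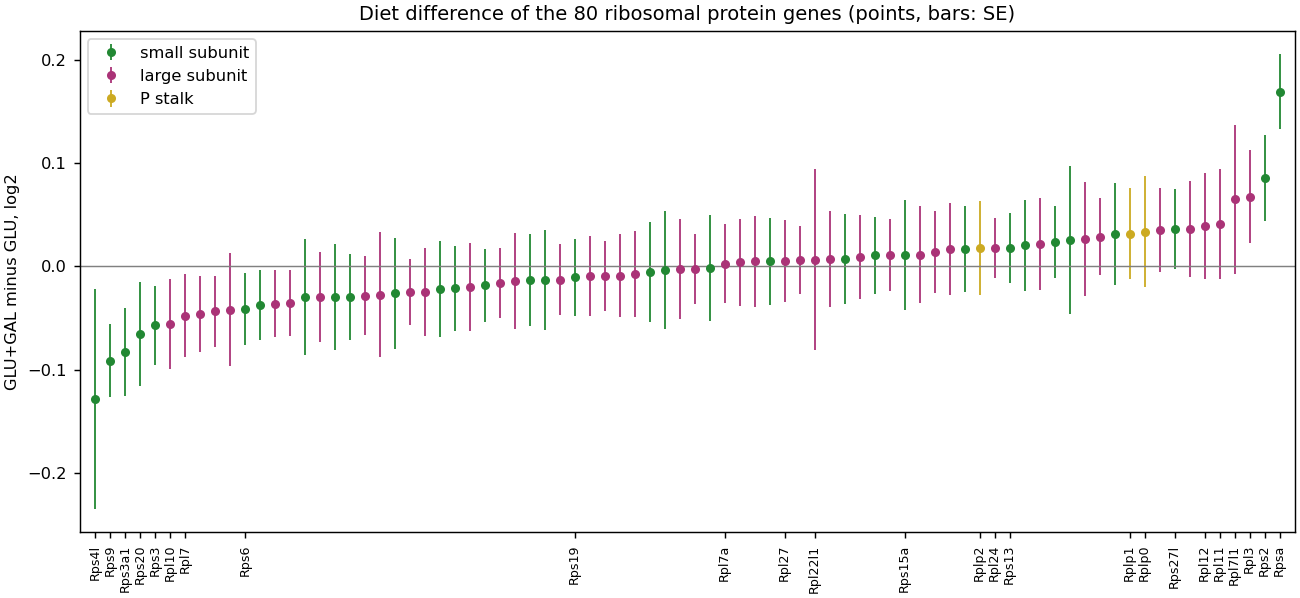
Difference of mean log2 ratio, GLU+GAL minus GLU, for each of the 80 genes in order of size, with bars of 1 moderated SE from limma (12 mice per diet). Colours mark the small subunit, large subunit and P stalk, and labels the 25 genes picked out by the naming rule. Rpsa stands at the right end at 0.169, apart from Rps2 at 0.085, and Rps4l at the left end has the widest bar.

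Rpsa, a protein of the small subunit that is also known as a laminin receptor, had the largest difference of all members. In GLU livers its log2 ratio ran from -0.142 through a median of -0.071 to 0.082, and in GLU+GAL livers from -0.033 through 0.116 to 0.190. The groups overlapped a little: 8 of 12 GLU+GAL mice lay above every GLU mouse, 2 GLU mice lay above the lowest GLU+GAL mouse, and that lowest mouse was on the array that stood apart, GLU+GAL 4. The means were -0.063 ± 0.064 (SD, n = 12) and 0.106 ± 0.069 (SD, n = 12). The difference was 0.169 ± 0.036 (SE), a 1.12-fold higher mean, and 12 of 12 GLU+GAL mice were above the GLU mean. Here and below, each SE of a diet difference is limma's moderated SE, in which a gene's variance is drawn toward that of all features. Its unadjusted p was the third smallest of all 18649 features, and its adjusted p in limma was 0.523, so it did not pass.

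A second Rpsa probe behaved like the first. Its log2 ratio ran from -0.584 through -0.423 to -0.146 in GLU and from -0.477 through -0.195 to -0.122 in GLU+GAL, a difference of 0.146, with 10 of 12 GLU+GAL mice above the GLU mean. Over the 24 mice, both diets together, the pair of probes correlated at r = 0.772. In the Cy5 channel alone Rpsa differed by 0.168, and in the Cy3 channel, where each array holds the same pool, by -0.0080. Within slides 1, 2 and 3, each with 4 arrays per diet, it differed by 0.162, 0.227 and 0.118. Without arrays GLU+GAL 4 and 12 the difference was 0.192. Taken relative to the median difference of the 80 members, it was 0.171 after loess, 0.173 with median centring, 0.159 with Agilent's processed signals and 0.168 in the authors' deposited table.

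Rps9, a small subunit protein at the messenger RNA entry site, had the opposite sign. In GLU livers it ran from 0.087 through 0.174 to 0.277, and in GLU+GAL livers from -0.033 through 0.068 to 0.170. The groups overlapped, with 7 of 12 GLU+GAL mice below every GLU mouse. The difference was -0.091 ± 0.035 (SE, n = 12 per diet), with an unadjusted p of 0.016 and an adjusted p of 0.999 in limma. The probe was printed 10 times on each array, and the spots of 1 array had an SD of 0.064. A second probe differed by -0.108 and another, much dimmer, by -0.104. In the authors' deposited table the Rps9 difference was -0.010, and relative to the median of the members it was -0.089 after loess and -0.092 in that table.

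Rps2, a protein of the small subunit's body, ran from -0.076 through 0.114 to 0.264 in GLU and from 0.108 through 0.177 to 0.289 in GLU+GAL. The GLU mice spread over the whole range and the GLU+GAL mice kept to its upper part, with 11 of 12 above the GLU mean. The difference was 0.085 ± 0.042 (SE), with an unadjusted p of 0.050 and an adjusted p of 0.999 in limma. The second probe named Rps2, whose coordinate lies elsewhere on the chromosome, differed by 0.086. Within slides 1, 2 and 3 the difference was -0.0084, 0.146 and 0.119, so the direction was not shared by slide 1.

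**Figure D2:**
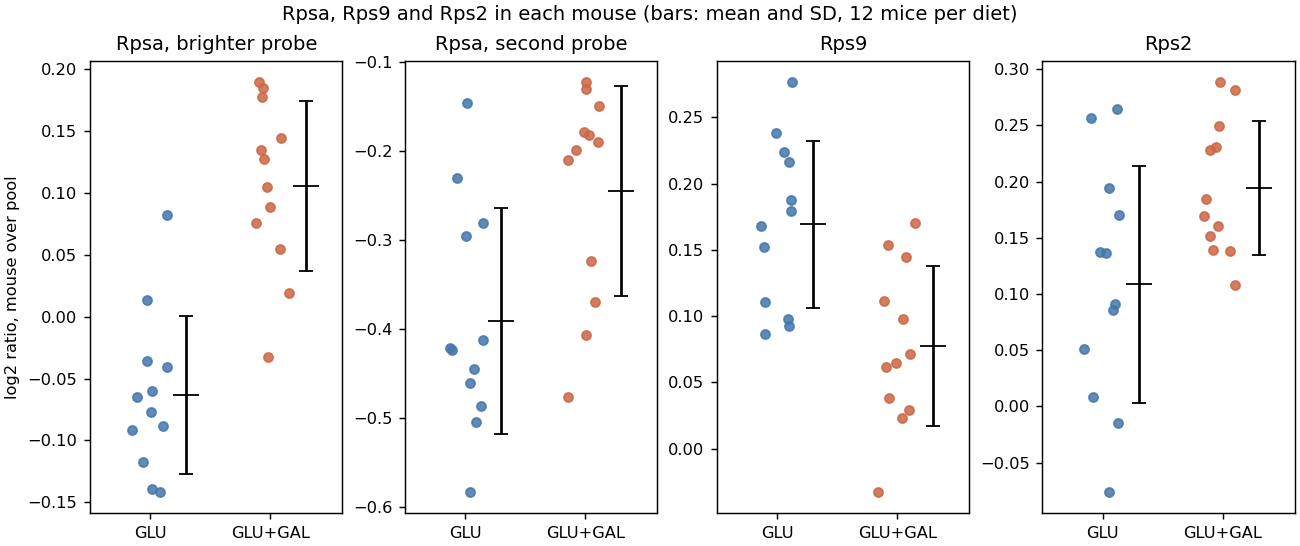
Log2 ratio of mouse over pool in each of the 24 mice for both Rpsa probes, Rps9 and Rps2, with the mean and SD of the 12 mice of each diet. Each panel has its own vertical axis. For the brighter Rpsa probe 8 of 12 GLU+GAL mice lie above every GLU mouse, and for Rps9 7 of 12 lie below every GLU mouse.

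Other small subunit genes differed less relative to their SE. Of the 33, 13 had a higher mean in GLU+GAL and 20 a lower one, with a median difference of -0.010. Rps6, the substrate of the S6 kinases downstream of mTORC1, ran from 0.033 through 0.108 to 0.268 in GLU and from -0.00081 through 0.084 to 0.163 in GLU+GAL. The groups overlapped widely and the difference was -0.041 ± 0.035 (SE). Rps3a1 differed by -0.083 ± 0.042 and its other 3 probes by -0.056, -0.024 and -0.044. Rps20 differed by -0.065 ± 0.050 and Rps3, at the entry of the messenger RNA channel, by -0.057 ± 0.038. The signs of these 4 genes turned with the scaling: with median centring Rps6 differed by 0.020, Rps20 by 0.018 and Rps3 by 0.0027, and in the authors' deposited table Rps3a1 differed by 0.0050.

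The large subunit genes were divided evenly, 22 with a higher and 22 with a lower mean in GLU+GAL, and their median difference was 0.00008. No large subunit gene reached an unadjusted p of 0.05, and all 44 differed by less than 0.1. Rpl3, near the peptidyl transferase centre, stood highest among them at 0.068 ± 0.045 (SE), with 0.034 and 0.044 for its other probes. Rpl11 differed by 0.041 ± 0.053 and Rpl12, at the stalk base, by 0.039 ± 0.051. Rpl10, which joins late in assembly, was the lowest at -0.056 ± 0.043, without array GLU 6, where its spot was left out as an outlier; with median centring it differed by 0.054. With that centring all 44 large subunit genes had a higher mean in GLU+GAL, as did 30 of the 33 small subunit genes and 48.6% of all features.

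The P stalk recruits elongation factors to the ribosome. Its 3 genes had slightly higher means in GLU+GAL, with Rplp0, the stalk's anchor, at 0.033 ± 0.054, Rplp1 at 0.032 ± 0.044 and Rplp2 at 0.018 ± 0.045 (SE). Rplp0 ran from -0.374 to 0.031 in GLU and from -0.298 to 0.065 in GLU+GAL, so the groups covered nearly the same range. All 3 means were higher in GLU+GAL with median centring, with Agilent's processed signals and in the authors' deposited table too. Of all features 48.6%, 67.3% and 55.9% were higher there, in that order. The direction of the 3 differences was not shared by all slides: within slide 3 Rplp0 differed by -0.012 and Rplp2 by -0.045, and within slide 2 Rplp1 by -0.019.

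Paralogues of ribosomal proteins, some of them tissue-restricted, were present in part. Rps27l, a p53 target, differed by 0.036 ± 0.039 (SE), Rpl22l1 by 0.0063 ± 0.088, Rpl7l1 by 0.065 ± 0.072 and Rps4l by -0.129 ± 0.106. Rps4l carries no pseudogene mark in its name and was counted for that reason. Without these 4 paralogues 35 of the other 76 members had a higher mean in GLU+GAL, with a median of -0.0030. Rps4l had the largest spread between mice of all 80, an SD of 0.279, and Rpl24 the smallest, 0.032. By their chosen probes, a paralogue and its parent gene went together weakly if at all over the 24 mice. The values were r = 0.093 for Rps27 and Rps27l, 0.234 for Rpl22 and Rpl22l1, -0.049 for Rpl7 and Rpl7l1 and 0.229 for Rps4x and Rps4l. The Rpl7l1 and Rps4l probes were dim for members (mean Cy5 signal 352 and 2081), and the chosen Rpl7 probe went against a second one (r = -0.393). The part of the probes in these values was not tested.

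Other genes of the translation machinery were taken from lists written for this comparison, and none of them passed the adjusted threshold either. The signs given below for single genes were the same with median centring, with Agilent's processed signals and in the authors' deposited table, but the sizes were not. Of 22 measured translation factors and other TOP messages, 9 had a higher and 13 a lower mean in GLU+GAL, with a median of -0.013 (0.028 with median centring). Eef1a1, the factor that brings aminoacyl-tRNA, differed by -0.117 ± 0.037 (SE, limma's adjusted p = 0.985), and Npm1 and Eef2 by -0.106 ± 0.052 and -0.097 ± 0.050. With median centring, with Agilent's processed signals and in the authors' deposited table, in that order, Eef1a1 differed by -0.039, -0.029 and -0.016. Npm1 differed by -0.071, -0.068 and -0.027, and Eef2 by -0.027, -0.046 and -0.011. Of 34 ribosome biogenesis genes, 15 had a higher and 19 a lower mean. With Agilent's processed signals these counts were 27 and 7, where 67.3% of all features were higher. Fbl, the methyltransferase of the nucleolus, differed by -0.109 ± 0.046, Nop10 by 0.099 ± 0.043 and Polr1a by 0.130 ± 0.071. Of 22 genes of mTORC1 and of ribosomal protein control, 12 had a higher and 10 a lower mean, with Eif4ebp2 at -0.165 ± 0.059, Max at 0.174 ± 0.066 and the mTOR inhibitor Deptor at -0.115 ± 0.070. Of 77 genes of mitochondrial ribosomal proteins, 59 had a higher mean in GLU+GAL and 18 a lower one, against 50.8% higher over all features. Their median was 0.025 against 0.0013 over all features, and none was past an unadjusted p of 0.05 in limma. The number higher was 66 with median centring, 73 with Agilent's processed signals and 68 in the authors' deposited table. Of all features 48.6%, 67.3% and 55.9% were higher, in that order. This list was not split by slide. In it, Mrps6 differed by -0.098 ± 0.048, Mrpl49 by 0.114 ± 0.056 and Mrpl18 by 0.096 ± 0.048.

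From mouse to mouse the 80 genes varied little and went together only weakly after loess. Their median SD over the 24 mice was 0.089, against 0.169 over all features. No SD was taken over features of like brightness, and 64 of the 80 members were among the brightest 5%. The median correlation over their 3160 pairs was r = 0.138, with 66.9% of pairs above 0, where over all pairs of features the median was 0.0084 and 51.1% lay above 0. All such pairs share the array, its loess curve and, in part, their brightness. Small subunit genes had a median r of 0.195 with one another, large subunit genes 0.118, and pairs across the subunits 0.132. Over 78 genes with all values, the first principal component held 25.4% of the variance. For comparison, 57 members had 2 or more probes above background, and the brightest pair of probes for the same gene had a median r of 0.615, and that of Rps15a, 0.953, was the highest. The 29 members with a probe printed 10 times had a median SD over mice of 0.069, where the SE of a mean over 10 spots was 0.019.

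The mean of all 80 genes ran from -0.126 through -0.055 to 0.020 in GLU and from -0.118 through -0.049 to 0.014 in GLU+GAL, so the diets covered the same range. It was lowest on array GLU 9 and highest on GLU 3. Within slides 1, 2 and 3 the median pairwise r was 0.10, 0.093 and 0.172.

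Members differed in how they went with the rest. With the mean of the other 79 genes, 71 members had r above 0 and 9 below, and the median was 0.377. The highest values were those of Rpl22l1 (0.792), Rps15a (0.780), Rps13 (0.775), Rpl27 (0.743) and Rps19 (0.728), the last the gene most often mutated in Diamond-Blackfan anaemia. The lowest were those of Rpl7 (-0.514), Rpl7a (-0.409), Rps2 (-0.371), Rpl24 (-0.331) and Rps6 (-0.256). Some of these turned with the choice of probe. In a comparison chosen after the data had been seen, the second probe had r = 0.420 with the other 79 genes for Rpl7, 0.551 for Rpl7a, 0.309 for Rpl24 and -0.220 for Rps13. For other genes the second probe had the sign of the first, with 0.837 for Rps15a, 0.442 for Rpl27, 0.300 for Rps19, -0.447 for Rps2 and -0.317 for Rps6. The pair of probes correlated at r = -0.393 for Rpl7, -0.217 for Rpl7a and -0.199 for Rps13. The second Rps13 probe was dim, with a mean Cy5 signal of 81.6 where the first had 28589, so its values say little about Rps13. Single pairs ran from -0.797 for Rpl7 with Rpl11 to 0.878 for Rpl35 with Rps25. Across the 80 members, r with the others went with the probe's mean log ratio of mouse over pool (Spearman's rho = -0.655) more than with its brightness (0.236) or its GC content (-0.299); these points share the 24 arrays and the normalisation.

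**Figure D3:**
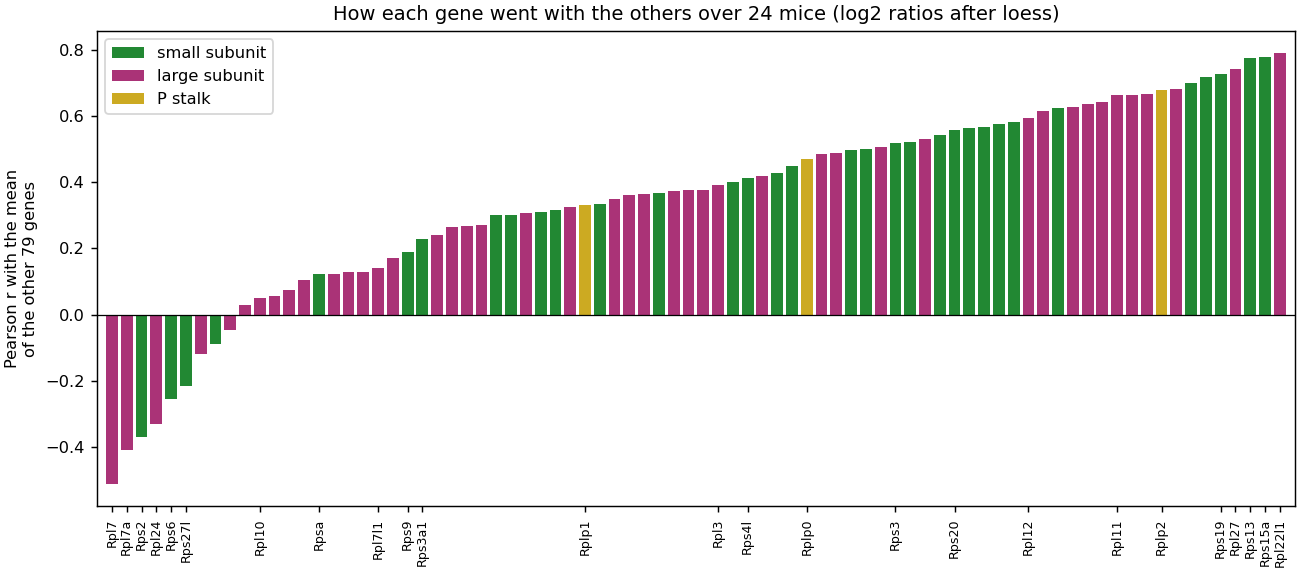
Pearson correlation of each gene with the mean of the other 79 genes over the 24 mice, on log2 ratios after loess, in order of size, coloured by subunit and labelled for the 25 genes picked out by the naming rule. The bars run from -0.514 for Rpl7 to 0.792 for Rpl22l1, with 9 below 0.

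The strength of this coordination depended on the normalisation far more than on which mice were included. With median centring, which moves all features of an array by one amount, the median pairwise r was 0.814. It was 0.647 with Agilent's processed signals and 0.713 in the authors' deposited table, and 0.132 in Cy5 alone after quantile normalisation. The ribosomal protein genes were bright, 64 of 80 among the brightest 5% of tested features, and other bright features moved too. The 1318 other features at least as bright as all but the dimmest members had a median pairwise r of 0.067 after loess and 0.526 with median centring, and all features 0.264 with median centring. The channel of the pool, which held the same RNA on each array, gave a median r among the 80 members of 0.889 when median centred and 0.092 when quantile normalised. Across the 24 arrays the mean of the 80 members went with that of the other bright features at r = 0.863 with median centring, and at r = -0.477 after loess. The part of these array-wide shifts in the correlations and in the count of genes higher in GLU+GAL was not tested. In the pool channel, median centred, 2 of 80 members had a higher mean on GLU+GAL arrays, and the median difference was -0.030. Over all features in that channel 19.5% were higher, with a median of -0.024, and of the other bright features 9.48% were. In Cy5 alone, median centred, 78 of 80 members had a higher mean (median 0.072) against 56.1% of all features (median 0.0099), and the median pairwise r was 0.682. These comparisons of channels and of other bright features were chosen after the data had been seen.

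**Figure D4:**
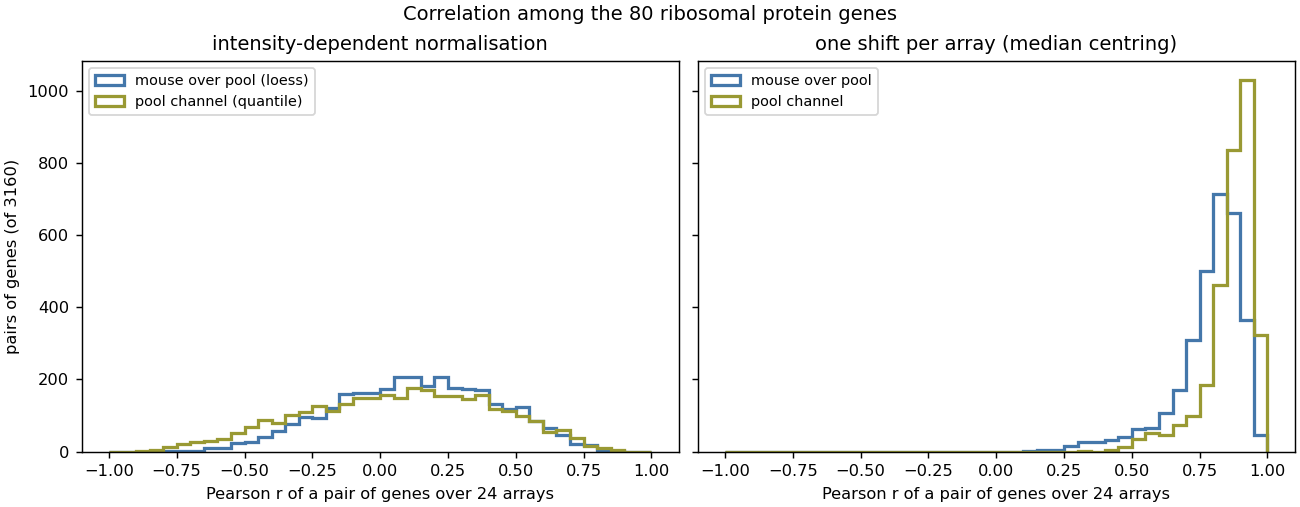
Number of pairs of the 80 genes (3160 in all) by their Pearson correlation over 24 arrays, for the ratio of mouse over pool and for the pool channel alone. After loess or quantile normalisation both are spread around medians of 0.138 and 0.092, and with median centring both are crowded near 1, at medians of 0.814 and 0.889.

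**Figure D5:**
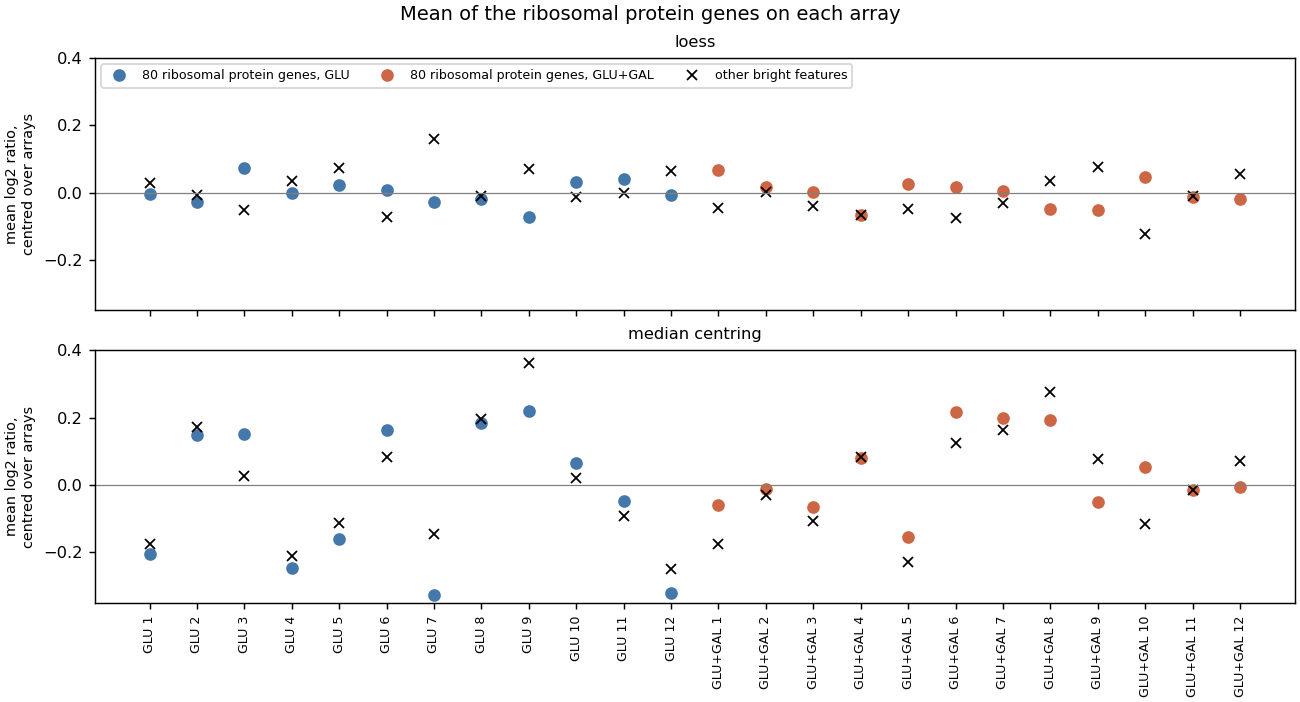
Mean log2 ratio of the 80 genes on each array (circles, by diet) and of 1318 other bright features (crosses), each centred over the 24 arrays, after loess (top) and with median centring (bottom). With median centring circles and crosses move together (r = 0.863) and over a wider range than after loess.

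Among the genes most like the mean of the 80 over the 24 mice, out of 18649 features and after loess, were Ltc4s, leukotriene C4 synthase (r = 0.808), Rab7b, a small GTPase (0.782), Msn, the membrane linker moesin (0.771), Ifi205 of the interferon-inducible p200 family (0.770) and Nkain1 (0.766). They were picked as the highest of many, and they share the arrays and the normalisation with the members. The mean of the mitochondrial ribosomal protein genes did not follow the cytosolic ones after loess (r = -0.0021, Spearman's rho = -0.011) and did with median centring (r = 0.895). The translation factors and TOP messages correlated with the members at r = 0.290 after loess and 0.937 with median centring. For the ribosome biogenesis list r was 0.277 and 0.651, and for the list of mTORC1 and ribosomal protein control -0.418 and 0.645, in the same order.

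Lists of cell type markers were set beside the members. All 10 Kupffer cell markers were above background, and their mean ran from -0.175 to 0.768 in GLU and from -0.591 to 0.303 in GLU+GAL. Of 8 T and NK cell markers 6 were above background (Cd8a was not), with means from -0.110 to 0.529 in GLU and from -0.299 to 0.149 in GLU+GAL. The mean of the 80 members correlated with the Kupffer cell list at r = 0.592 (0.512 without the 2 farthest mice) and with the T and NK cell list at r = 0.577 (0.501), and with median centring at 0.337 and 0.446. With the hepatocyte markers the members' mean correlated at r = 0.0015 after loess and 0.733 with median centring. Of the other lists examined, the skeletal muscle list correlated with the members at r = -0.234 (Spearman's rho = 0.129) and the pancreas list at 0.483 (0.603 in the authors' deposited table). For the B cell list r was 0.435 (0.194 without the 2 farthest mice). Rpsa itself went with the Kupffer cell list at r = -0.393 and with the hepatocyte list at -0.389 over both diets, whose means of these lists differed. The Kupffer cell list had a mean of 0.159 in GLU and -0.079 in GLU+GAL, and the hepatocyte list 0.333 and 0.195. Within GLU and within GLU+GAL (12 mice each) Rpsa had r = -0.272 and 0.033 with the Kupffer cell list and -0.291 and 0.396 with the hepatocyte list, so neither relation was shared by both diets. Larger values stood in other lists, also with opposite signs in the diets. Within GLU and GLU+GAL, r was 0.276 and -0.658 for skeletal muscle, 0.195 and -0.572 for kidney and adrenal, and -0.502 and 0.340 for endothelial cells. The part of other cell types in these values was not tested, and in whole liver fewer cells of a type and less RNA per cell cannot be told apart. Lists for neighbouring tissues were in part below background: 4 of 6 markers of adrenal and kidney were not above it, nor were Acta1 and Ckm of the skeletal muscle list. The other 4 of the 6 skeletal muscle markers were above it, and the mean of that list reached 0.865 in GLU+GAL, on array 4, against a highest value of 0.220 in GLU.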

How the data were processed

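Per the file headers, the scanner output gives a spot intensity for each dye. Signals were extracted by the authors with Agilent Feature Extraction (version 10.7.3.1 in the submitters' processing notes). The authors' deposited table holds log2 values; its scaling is not stated in those notes, and each column resembled most the Cy5 signal of the array it is named for (24 of 24). Background was corrected by normexp (offset 50) and the log2 ratios, mouse (Cy5) over pool (Cy3), were put through loess for each array, leaving controls out of the curve, using R 4.3.3, limma (3.58.1) and data.table (1.17.8). Loess removes what features of like brightness share on an array. Spots flagged as outliers were left out and spots of a probe averaged. All features were fitted together (GLU+GAL minus GLU, 2-sided, Benjamini-Hochberg). On simulated data with 12 mice per diet and 18649 features, limma found 68% of 50 features given a shift of 0.3 (log2) and 98% of those given 0.6, with 7 false calls among 190. The simulated noise was normal and independent between features, with each feature's own SD, and held no array or slide effects. Every member's diet difference after loess was smaller than 0.3, so shifts of that size were not simulated. The members and lists were chosen with earlier results of these data known. Named were members past the threshold, the 6 highest and 6 lowest differences, the 5 highest and 5 lowest correlations with the others, Rplp0, Rplp1, Rplp2, Rps6, Rpsa, 7 paralogues, the 6 most alike other genes with a symbol, and the 3 smallest p of each list; other names were chosen after their values were seen. Some genes are not reported here by name. Of the 80 members 73 matched RefSeq by accession and 7 by symbol. Protein identity between paralogues was planned and not run. The slide was the batch (3 slides, 4 arrays per diet on each). Alternatives are given in the closing section. Correlations and plots were made in Python 3.11.15 with numpy 2.4.6 and matplotlib 3.10.9.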

Additional observations from a re-analysis of the deposited data

How the results depend on the processing

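Rpsa kept its sign under all 41 alternatives (0.118 to 0.249; limma's adjusted p from 0.151 to 1.00), as did Rps9 and Rps27l, 3 of the 25 named members, and no member passed the threshold under any of them. The number of members higher in GLU+GAL was 71 with Agilent's processed signals, 77 with median centring, 78 in the authors' table and 15 within slide 3. Of all features 67.3%, 48.6%, 55.9% and 57.8% were higher, in the same order. From 29 to 44 members were higher when 1 mouse was left out. The members' median difference was 0.046, 0.062 and 0.081 under the first 3 (-0.011 to 0.0058 without 1 mouse). Their median pairwise correlation was 0.647, 0.814 and 0.713 (0.124 to 0.149). Members at an unadjusted p under 0.05 numbered 1 with median centring, 6 in the authors' table, 4 with the mean over probes, 0 within slides 1 and 3, and 2 to 4 without 1 mouse, where 2.03%, 4.36%, 4.37%, 6.81% and 3.94%, and 3.53% to 5.23%, of all features were past that level. Without GLU 3, 1 feature passed the threshold (Zfp787, no member), where leaving out any other mouse gave 0. The causes were not tested.

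Replicate numbers are shared between diets without a stated pairing. Same-numbered mice correlated from -0.380 to 0.521, 8 of 12 pairs above 0.1, and 2 mice correlated best with their own number. With the replicate number as a block 0 features passed, and 38 members were higher in GLU+GAL (50.8% of all features). In that fit 2 members were past an unadjusted p of 0.05 (6.02% of all features), and the median correlation was 0.0845. The number of arrays limits the precision: limma's moderated SE of a member's diet difference was 0.036 for Rpsa. Protein identity between paralogues, listed as an analysis, was not run.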
